A study of Mus musculus with 18 samples.

Results

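Myotubes of the mouse line C2C12 that had been kept with ethanol for 24 h were compared with C2C12 myotubes kept with ethanol for 6 h. Ethanol, at 0.01% of the medium volume, was the vehicle of a study of dexamethasone (Dex, a synthetic glucocorticoid, used at 1 uM), so these cultures held no added hormone. The comparison takes 9 of the study's 18 arrays, chosen by their titles: 4 ethanol arrays at 6 h and 5 at 24 h. The other 9 arrays, 4 at 6 h and 5 at 24 h, came from Dex-treated myotubes and are used only to set the change between the same times beside that of the vehicle. All groups were grown in medium with 2% horse serum, and Illumina mouseWG-6 bead arrays, which carry probes for most mouse genes, gave the RNA levels. Triplicates are named in the design text, but the labels count 4 or 5 samples in a group, and all of them were used.

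C2C12 cells are an immortal myoblast line that leaves the cell cycle, fuses and builds sarcomeres when serum is withdrawn. Myogenic transcription factors of the MyoD family start this programme, with Myod1 marking commitment and Myog driving terminal differentiation together with Mef2 factors. The cultures have no nerve and no blood supply, and a dish also keeps single-nucleus cells that did not fuse, so a changed signal may come from either kind of cell. In a bulk RNA sample, fewer cells of a type and less RNA per cell cannot be told apart. The labels do not say how long the myotubes had differentiated before ethanol was added, nor whether each replicate was a culture of its own, so the p-values rest on a spread between arrays that may be technical only.

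After the 9 ethanol arrays were brought to one intensity distribution (quantile normalization), 5564 of 19057 genes (29.2%) differed between the times at an adjusted p under 0.05 in limma, a linear model fitted to every gene. Of these, 2711 (14.2% of all genes) were higher and 2853 (15%) lower at 24 h. Most differences were small: 921 genes (4.83%) passed the test with a change of at least 1.5-fold, 297 of them (1.56%) higher and 624 (3.27%) lower, and 170 (0.892%) reached 2-fold. The 2 groups of arrays did not overlap for 4663 genes (24.5%), and 4298 genes (22.6%) were both called and without overlap. Dim genes were called less often than bright ones, with 5.52%, 10.4%, 47.4% and 53.4% called in 4 equal classes of genes from the dimmest to the brightest. A list of well-expressed genes is therefore read against the 50.4% called among genes above the median gene, 25% higher and 25.5% lower.

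The deposited values differed in scale between the times, with array medians of 99.8 to 100 at 6 h and 85.2 to 86.8 at 24 h in the ethanol arrays. As deposited, the median gene was lower at 24 h by 0.26 on the log2 scale, 14883 genes were called and 1.97% of them were higher. With each array only centred on its median, 6183 genes were called, 1267 higher and 4916 lower, so 20.5% were higher against 48.7% after quantile normalization. A scale difference made by processing and a true shift of all genes cannot be told apart here, and changes below are relative to the common distribution. Of the 5564 calls, 2714 (48.8%) were called in the same direction under all 5 other scalings tried, and of the 921 calls of at least 1.5-fold, 852 (92.5%) were. Each gene is given by its brightest probe, and other probes are given as further values for part of the genes only. A gene given without them may still have other probes, and these may have moved less or the opposite way. Intensities are on the normalized scale, where the median gene reads 103, and a signal near that value may be background, since no detection values were used.

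Myog, which encodes the transcription factor myogenin, rose. It read 2729.6, 3193, 2883 and 3315 on the 4 arrays at 6 h and 7011, 6857, 6581, 5685 and 5668 on the 5 arrays at 24 h. Every array at 24 h lay above every array at 6 h, with a log2 difference of 1.07 (SE 0.08, adjusted p = 9.48e-08), and a further Myog probe gave 0.79. Myod1, the commitment factor, read 1111, 956, 1155 and 1008 at 6 h and 944, 836, 725, 716 and 835 at 24 h. Its groups did not overlap either, and it fell by 0.39 (SE 0.08, adjusted p = 0.00214).

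Among the 27 measured myogenic regulators, 6 rose and 11 fell, with a median log2 difference of -0.07 against 0.0055 over all genes. Mef2c, a partner of the MyoD family, fell from 4458 ± 124 (SD, n = 4) to 2883 ± 439.7 (SD, n = 5), by 0.64 on the log2 scale, while 3 of its other probes gave -0.13, -0.13 and -0.07 and the last -1.11. Genes that hold myotubes out of the cell cycle changed in both directions: the Cdk inhibitors Cdkn1c and Cdkn1a fell by 0.72 and 0.47, and Rb1, the retinoblastoma protein, fell by 0.54, while the Cdk inhibitors Cdkn1b and Cdkn2c rose by 0.46 and 0.30. Other probes of Cdkn1b, both dim, gave 0.06 and -0.05, and those of Cdkn2c gave 0.37 and 0.42. For Rb1 another probe gave 0.25, and for Cdkn1a the other probes gave -0.01 and -0.08, so these calls rest on the brightest probe. Of 20 G1 regulators 3 rose and 5 fell, beside 25% higher and 25.5% lower among genes above the median gene. N-cadherin (Cdh2) and M-cadherin (Cdh15), adhesion proteins of fusing myoblasts, rose by 0.50 and 0.28. Caveolin-3 (Cav3) and dysferlin (Dysf), proteins of the mature muscle membrane, each fell by 0.38, with 0.35, 0.07, -0.36 and 0.09 at other probes of Dysf. Markers of undifferentiated myoblasts gave no single direction: Pax7 and Myf5 did not pass the test (0.11 and 0.14), syndecan-4 (Sdc4) rose by 0.49, and Heyl and Id3 fell by 0.38 and 0.20.

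The 12 myotube markers were all above the median gene. Their summed intensity was 204966 to 212843 at 6 h and 185186 to 208092 at 24 h. Besides Myog, only Chrna1, a receptor subunit, was called among the 12, falling by 0.17; without array 3 at 6 h, or array 1, 2, 3 or 4 at 24 h, no marker was called lower. The count of markers called lower was 6 with median centring and 11 on the values as deposited. Skeletal actin (Acta1) read 28625 ± 1077 (SD, n = 4) at 6 h and 28419 ± 3223 (SD, n = 5) at 24 h, a log2 difference of -0.02 (SE 0.08), and muscle creatine kinase (Ckm) gave -0.08 (SE 0.07). Neither passed the test, although both were called lower on the values as deposited, and Ckm also with median centring.

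**Figure D1:**
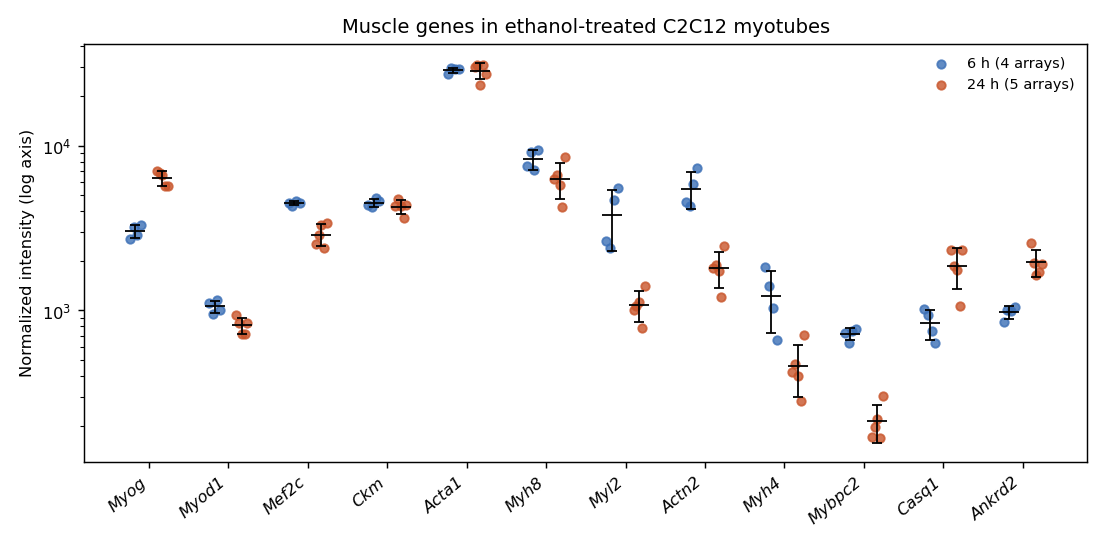
Normalized intensity (log axis) of 12 muscle genes on the ethanol arrays; points are arrays, long bars are group means and whiskers 1 SD, with 4 arrays at 6 h (blue) and 5 at 24 h (red). Myog, Casq1 and Ankrd2 sit higher at 24 h, Myl2, Actn2 and Mybpc2 sit lower without overlap, and Ckm and Acta1 overlap.

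Sarcomere genes changed in both directions. Of 46 measured genes, 9 rose and 15 fell, with a median of -0.11. Among genes above the median gene, 25% rose and 25.5% fell. With median centring 5 sarcomere genes rose and 21 fell, and on the values as deposited 4 rose and 37 fell. At the brightest probes, the falls were the larger changes, and they lay in thick-filament and Z-disc genes. Other probes gave changes of both signs. Those of titin (Ttn) gave -0.15 to 1.48, those of Ldb3 -0.12 to 0.93 and those of Actn3 0.22 and 0.60. In contrast, other probes of Tcap and Myh1 gave -1.38 and -1.12. Promoter sequences of Myl2 and Myh4 are shown because both genes fell and both carry a myogenic E-box, the letters CAGCTG (which read the same on both strands), to which MyoD family factors can bind. They come from RefSeq on build GRCm38.p6 and cover 100 bases each, at chr5:122093039-122093138 (plus strand, 150 to 51 bases before the start of Myl2) and chr11:67237712-67237811 (plus strand, ending at the base before the start of Myh4); capitals mark the E-box.
Myl2: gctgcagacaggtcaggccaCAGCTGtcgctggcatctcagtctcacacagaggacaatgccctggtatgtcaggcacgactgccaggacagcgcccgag
Myh4: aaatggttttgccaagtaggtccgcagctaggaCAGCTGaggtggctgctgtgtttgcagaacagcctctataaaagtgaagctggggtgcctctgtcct
CAGCTG was found in 15 of 41 promoters (36.6%) of the 35 sarcomere genes with an entry, in windows of 300 bases, and in 16.3% of 32851 promoters in all. Of the 14 promoters of genes called lower, 7 held it. These matches describe sequence only.

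Myl2, the slow-type regulatory myosin light chain, read 2655, 2408, 4699 and 5501 at 6 h and 1007, 1066, 1127, 778 and 1413 at 24 h. All 5 late arrays lay below all 4 early ones, and the gene fell by 1.76 (SE 0.21, adjusted p = 9.01e-06), although the 6 h arrays themselves differed by more than 2-fold. Actn2, the alpha-actinin that cross-links actin at the Z-disc, read 4515, 4305, 5818 and 7315 at 6 h and 1821, 1896, 1738, 1201 and 2446 at 24 h. It fell by 1.60 (SE 0.17), a further probe fell alike (-1.55), and a last one gave 0.13.

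Mybpc2, the fast-type myosin-binding protein C, fell by 1.80, and Mybpc1, its slow-type relative, fell by 1.36. Other probes of Mybpc1 gave -0.82, -0.14 and 0.02. Tcap, the titin cap protein, fell by 1.28, with -1.38 at another probe. Among the myosin heavy chains, Myh4 (fast IIb) fell by 1.39, with values of 1830.1, 1403, 1033 and 659.9 at 6 h and 425, 477, 403, 281 and 714 at 24 h. The lowest early array lay below the highest late one, so its groups overlapped. Myh1 (fast IIx) fell by 1.08 and Myh8 (perinatal) by 0.42, the latter with overlapping groups and with the call lost without array 2 or 4 at 6 h or array 1, 3 or 4 at 24 h (adjusted p from 0.0558 to 0.112). Myh7, the slow myosin, rose by 0.61, from 111 ± 8.39 to 169 ± 4.54, in the range of dim signals. The embryonic myosin Myh3 is not analysed here.

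Rises at the brightest probes of the sarcomere list were led by Ankrd2, a stretch-responsive Z-disc protein. Ankrd2 read 847, 1007, 994 and 1044 at 6 h and 2559, 1942, 1652, 1723 and 1913 at 24 h. Its groups did not overlap, and it rose by 1.00 (SE 0.11, adjusted p = 2.62e-06). Tmod4, which caps the thin filament, rose by 0.66 and nebulin (Neb), its ruler, by 0.51 at dim signal. Other probes of Tmod4 gave 0.17 and 0.09. Of the troponin genes Tnni1, Tnni2, Tnnc1, Tnnc2, Tnnt1 and Tnnt3, only Tnnt1 was called (-0.28).

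Of 19 calcium handling genes 5 rose and 4 fell, shares close to those of all genes above the median gene; with median centring 4 rose and 8 fell. Casq1, the main calcium store of the sarcoplasmic reticulum in fast fibres, read 1026, 937, 750.3 and 637 at 6 h and 2326, 1858, 1757, 1067 and 2342 at 24 h. Array 4 at 24 h stood only just above the highest early one, and the gene rose by 1.13 (SE 0.19, adjusted p = 0.000223). Calreticulin (Calr), a calcium-binding chaperone, rose by 0.83, with -0.04 at another probe, and Cacna2d1, a calcium channel subunit, by 0.75. The calcium pump Atp2a2 fell by 0.45 at its brightest probe, while its other probes gave -0.51, 0.84 and 0.02.

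Acetylcholine receptor subunits, which gather under the nerve ending, were lower for 4 of 5 measured (Chrna1, Chrnb1, Chrne and Chrng, by 0.17 to 0.28), and none was higher. Other probes gave -0.07 and -1.77 for Chrna1, -0.59 for Chrng and -0.02 for Chrnb1. Rapsn, the scaffold that clusters the receptor, fell by 0.62 and its other probes gave -0.57 and -0.43. Its values were 3856, 4314, 4776 and 4809 at 6 h and 2908, 2847, 2864, 2877 and 2868 at 24 h. Agrin (Agrn), which triggers clustering, rose by 0.76, from 897 ± 187 (SD, n = 4) to 1499 ± 63.5 (SD, n = 5).

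Energy enzymes of muscle fell or did not pass the test. None of 14 measured rose and 7 fell, with a median of -0.30, beside 25% higher and 25.5% lower among genes above the median gene. Pygm, muscle glycogen phosphorylase, fell by 0.73, and its groups did not overlap. Myoglobin (Mb), the oxygen store, fell by 0.65 and gave -0.09 at another probe. Adssl1, the muscle enzyme of AMP synthesis, fell by 0.56, and Phka1, a subunit of phosphorylase kinase, by 0.49. The scale moved the counts of nearly every list the same way: with median centring 32 of the 40 gene lists had fewer genes called higher and 36 had more called lower.

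**Figure D2:**
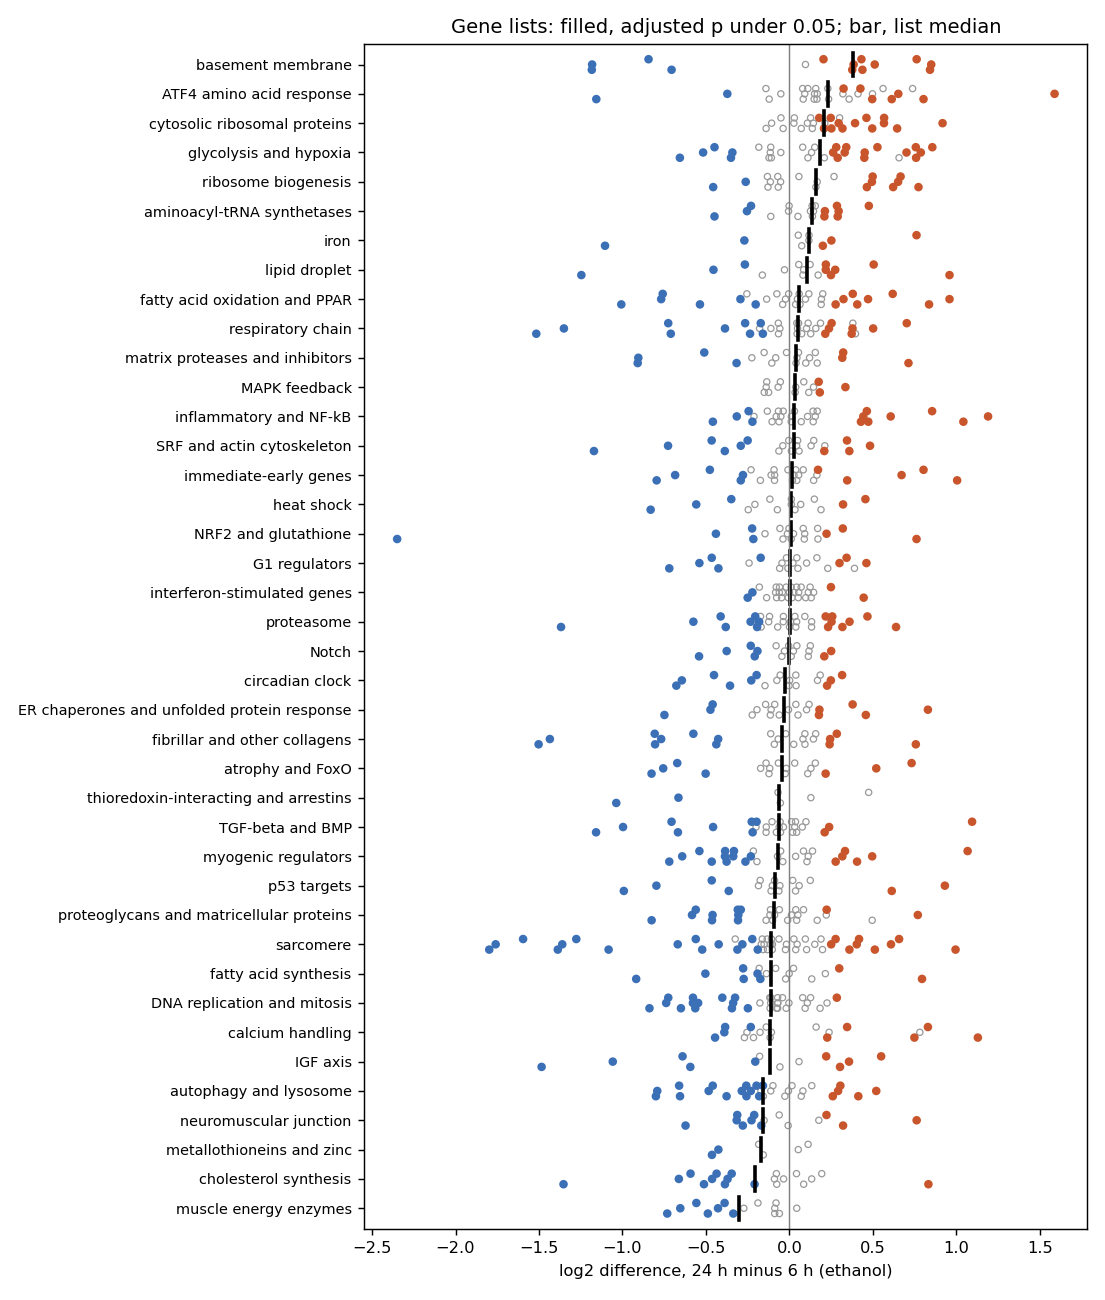
Log2 difference, 24 h minus 6 h, of every measured gene in 40 gene lists (rows, ordered by their median); filled points passed an adjusted p under 0.05 (red higher, blue lower), open ones did not, and the black bar is the list median. Basement membrane, ATF4 and ribosomal protein genes have medians above 0.20, and muscle energy enzymes (-0.30) and cholesterol synthesis (-0.21) the lowest.

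Some stress regulators of the amino acid response rose at 24 h in ethanol. ATF4 is a transcription factor made when amino acids run short or proteins misfold, and it switches on genes for amino acid synthesis, transport and tRNA charging, and stress regulators such as Atf3, Ddit3 and Nupr1. The promoters of Fgf21, Atf3 and Nupr1, which rose, are shown because they carry the letters TGATGNAA, the core of the element that ATF4 binds with C/EBP partners; the capitals mark it, here on the opposite strand (TTGCATCA). They are 100-base stretches from RefSeq, build GRCm38.p6: Fgf21 at chr7:45615550-45615649, Atf3 at chr1:191183364-191183463 and Nupr1 at chr7:126625501-126625600, all on the minus strand of the genome and starting 159, 130 and 130 bases before the start of transcription.
Fgf21: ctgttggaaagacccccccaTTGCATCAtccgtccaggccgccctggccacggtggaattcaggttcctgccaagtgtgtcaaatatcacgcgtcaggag
Atf3: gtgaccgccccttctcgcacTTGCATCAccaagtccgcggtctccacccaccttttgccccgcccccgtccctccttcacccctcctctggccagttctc
Nupr1: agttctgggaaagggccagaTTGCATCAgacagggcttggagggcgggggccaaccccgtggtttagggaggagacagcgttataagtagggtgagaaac
Searched on both strands in 300 bases, the letters were found in 8 of 29 promoters (27.6%) of the list and in 3.97% of all 32851.

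Fgf21, a hormone that stressed muscle releases, read 2898, 1683, 892 and 673 at 6 h and 7766, 5196, 2503, 2972 and 3143 at 24 h. The spread within each time was wide, and the highest early array lay above the lowest late one. The gene rose by 1.59 (SE 0.36, adjusted p = 0.0031), and by 1.27 to 1.97 with any 1 array left out. Atf3 read 148, 164, 176 and 188 at 6 h and 403, 346, 229, 247 and 276 at 24 h, without overlap, and rose by 0.80 (SE 0.13, adjusted p = 0.000213). Ddit3, the stress factor CHOP, rose by 0.65 (0.50 at another probe). Sesn2, an inhibitor of mTORC1, rose by 0.61 (-0.05 and 0.08 at other, dimmer probes), Nupr1, a stress-response cofactor, by 0.50, and Ddit4, a further mTORC1 inhibitor, by 0.43. The first 2 arrays at 24 h read highest for Fgf21, Atf3, Ddit3 and Nupr1.

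Of the 29 measured genes of the list, 7 rose and 2 fell, a share of rises close to the 25% of genes above the median gene. All 7 were among its 12 regulators; Atf4 itself, Trib3, Cebpb, Chac1 and Ppp1r15a did not pass the test. With median centring 3 rose and 4 fell, so the count depends on the scale, and without array 5 at 24 h 11 rose. It also depends on pairing, since 13 rose with the replicate number as a block. None of the 10 genes of serine, asparagine and one-carbon synthesis was called, although all 10 differences lay between 0.08 and 0.56, and whether regulators and enzymes differ was not tested. Asns, asparagine synthetase, read 5041, 5210.1, 4887 and 4694 at 6 h and 9422, 6937, 4164, 5811 and 4196 at 24 h, so that the late arrays lay both above and below the early ones. Other probes of Asns gave 0.35 and -0.47. The amino acid transporter Slc38a2 fell by 1.16, while its 2 other probes gave 0.27 and 0.29.

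In Dex-treated myotubes this list went differently: none of its 29 genes rose between the times and 11 fell. The difference between the time effects was itself called for 7 of the 29 genes, each higher in ethanol, against 5.05% of all genes. That share includes dim genes, which are called less often, and the share among genes above the median gene was not counted. Between Fgf21 in ethanol and in Dex (-0.34) the difference was 1.93 (adjusted p = 0.0281), for Atf3 0.75 (adjusted p = 0.0224), for Sesn2 0.57 (adjusted p = 0.0309) and for Asns 1.02 (adjusted p = 0.0374). The deposited values of the arms are linked, as described below, so these p-values may be too small. With all 18 arrays normalized together, mean Fgf21 was 1538 and 4324 in ethanol and 1049 and 882 in Dex at 6 h and 24 h. Mean Ddit4, in contrast, was higher in Dex at both times, at 1526 and 1726 against 427 and 576 in ethanol. Aminoacyl-tRNA synthetases, which load amino acids onto tRNAs, were higher for 6 of 18 and lower for 3 in ethanol, higher for none and lower for 10 in Dex, and 6 differences between the time effects were called, each higher in ethanol. Sars, for serine, rose by 0.48 (-0.23 and -0.01 at other probes) and Tars, for threonine, fell by 0.45 (-0.23 at another). No synthetase was called higher with median centring, and 2 or 3 were without array 1 at 6 h or array 1, 2 or 4 at 24 h.

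**Figure D3:**
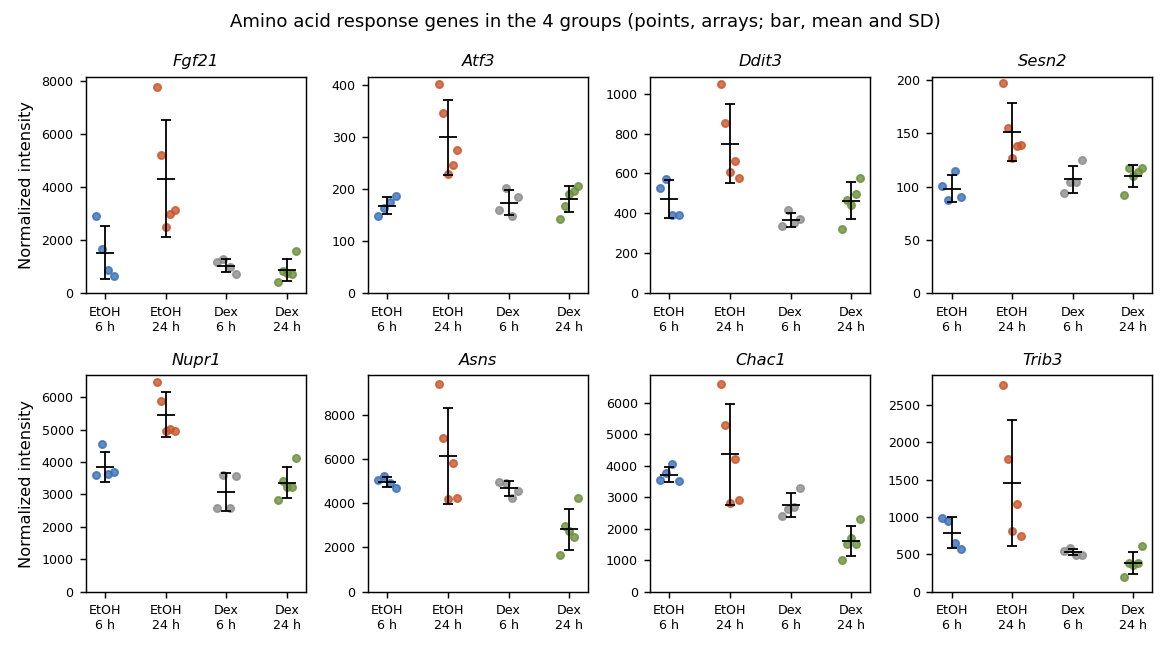
Normalized intensity (all 18 arrays normalized together) of 8 amino acid response genes in the 4 groups, 4 arrays each at 6 h and 5 at 24 h; points are arrays, bars mean and SD. The 8 genes drawn were picked from the 29 of the list. All 8 have their highest group mean in ethanol at 24 h, and for Fgf21, Asns, Chac1 and Trib3 the ethanol arrays of the 2 times overlap. The regulators not drawn differ: Ddit4, Cebpb and Eif4ebp1 have their highest mean in Dex, and Atf4 and Ppp1r15a in ethanol at 6 h.

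Cholesterol synthesis genes fell more often than they rose. The pathway is run by SREBP-2 (Srebf2), which is held in the endoplasmic reticulum by Insig1 while sterols are plentiful, and both Insig1 and the enzymes are its targets. Promoters of Idi1 and Insig1 are shown, since both fell and both carry CCAAT, the box bound by NF-Y, a partner of SREBP factors; capitals mark it on either strand (CCAAT or ATTGG). The stretches are from RefSeq, build GRCm38.p6, plus strand: chr13:8885506-8885605 for Idi1, up to its start, and chr5:28071176-28071275 for Insig1, from 236 bases before its start.
Idi1: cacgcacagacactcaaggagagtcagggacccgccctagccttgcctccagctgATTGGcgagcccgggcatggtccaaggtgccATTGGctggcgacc
Insig1: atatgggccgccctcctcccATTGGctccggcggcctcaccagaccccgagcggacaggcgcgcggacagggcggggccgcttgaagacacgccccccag
CCAAT was found in 15 of 20 promoters (75%) of the list and in 37.4% of all 32851; of the 11 promoters of genes called lower, 9 held it. The sterol regulatory element, to which SREBP factors bind, was searched in a single strict form and found in 0 of the 20 promoters and in 0.234% of all, which says only that this form is not in these windows.

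Insig1 read 905, 1122, 1379 and 1729 at 6 h and 443, 479.7, 524, 487 and 513 at 24 h. The late arrays were tightly grouped below every early one, and the gene fell by 1.35 (SE 0.13, adjusted p = 1.2e-06), with -0.43, -0.45 and 0.02 at other probes. Srebf2 moved the other way, from 638 ± 70.1 (SD, n = 4) to 1139 ± 144 (SD, n = 5), a rise of 0.83, with 0.30 at another probe.

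Of 15 enzymes, 8 fell and none rose. They included lanosterol synthase (Lss, by 0.66, with overlapping groups and 0.06 and 0.07 at other probes), isopentenyl-diphosphate isomerase (Idi1, by 0.59), the methylsterol oxidase Msmo1 (by 0.51) and the last enzyme, Dhcr7 (by 0.46). Lss read 289, 286, 568 and 546 at 6 h and 225, 230.3, 253, 306 and 257 at 24 h, so arrays 1 and 2 at 6 h lay within the late range. Arrays 3 and 4 also read highest at 6 h for Insig1, Srebf1, Psmd6 and Myl2, but lowest for Myh4 and Bmp4. The source of this split was not tested. Squalene epoxidase (Sqle) and Cyp51 gave -0.09 and -0.08 and were not called. The HMG-CoA synthase Hmgcs1 is not analysed here. For the whole list, 10 of 19 fell and 1 rose in ethanol, and 4 fell and 5 rose in Dex. The difference was called for 5 of the 19 genes, each lower in ethanol, against 5.05% of all genes, dim ones included. For Insig1 the difference was -0.64 (adjusted p = 0.0405).

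Fatty acid synthesis followed in part, with 6 of 16 genes lower and 2 higher; the lower count was 2 or 3 without array 3 or 4 at 6 h or array 2, 3 or 5 at 24 h. Malic enzyme (Me1), a source of NADPH, fell by 0.92 and the regulator Srebf1 by 0.50, while the desaturase Scd2 rose by 0.79 and Fasn (-0.02) and Acaca (-0.0012) did not pass the test. Perilipin-2 (Plin2), the coat of small lipid droplets and a PPAR target, read 543, 509, 589 and 478 at 6 h and 1033, 989, 1047, 1029 and 1039 at 24 h. It was higher on every late array and rose by 0.96 (SE 0.06, adjusted p = 3.16e-08). Angptl4, a PPAR target that inhibits lipoprotein lipase, rose by 0.84, with -0.01 at another probe. The lipase gene Lpl itself fell by 0.45 in ethanol and rose by 0.76 in Dex, a difference of -1.21 (adjusted p = 0.000515). Mgll, which cleaves monoglycerides, fell by 1.25, with -0.62 and -0.41 at its other probes. Hadhb, of mitochondrial fat oxidation, fell by 1.01 and the coactivator Ppargc1b by 0.77.

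Of 30 glycolytic and hypoxia-inducible genes 13 rose and 5 fell, with a median of 0.18. With median centring, 7 rose and 7 fell. Ndrg1, a stress and hypoxia-induced protein, rose by 0.86 (1.09 at another probe), platelet phosphofructokinase (Pfkp) by 0.76 (1.01 and 0.03 at others) and the collagen prolyl hydroxylase P4ha1 by 0.76 (0.76 at another). P4ha1 went from 524 ± 30.8 (SD, n = 4) to 887 ± 70.5 (SD, n = 5), without overlap. Vegfa, the vessel growth factor, rose by 0.33, with 0.51 and -0.03 at others, and Pdk1, which turns pyruvate away from mitochondria, by 0.70. Muscle phosphofructokinase (Pfkm), in contrast, fell by 0.52, with 0.26 at another probe. Pgam1 rose by 0.79 at its brightest probe and fell at another (-0.63).

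Of 33 respiratory chain genes 7 rose and 9 fell, with a median of 0.05. These shares were close to the 25% higher and 25.5% lower among genes above the median gene. With median centring 2 rose and 15 fell, and on the values as deposited 1 rose and 25 fell. Sdhd, a membrane subunit of complex II, read 618, 706, 710.1 and 852 at 6 h and 210.4, 235, 282, 251 and 283 at 24 h. It fell by 1.52 (SE 0.10, adjusted p = 2.09e-08) and by 0.84 in Dex, a difference of -0.68 (adjusted p = 0.0052). Atp5a1, a subunit of ATP synthase, fell by 1.35 at its brightest probe and gave -0.06 at another. Ndufb5 and Ndufb9, of complex I, fell by 0.73 and 0.71, and Ndufa4 rose by 0.70.

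Matrix genes changed in both directions. Fibrillar collagens form the fibres of the interstitial matrix, and collagen IV, laminins and nidogens form the basement membrane around each fibre. Of 8 fibrillar collagens 4 fell and none rose. Col1a1 read 1154, 853, 1114 and 857 at 6 h and 605, 574, 496, 534 and 615 at 24 h, with no overlap, and fell by 0.81 (SE 0.10, adjusted p = 9.27e-06). Col3a1 fell by 1.43 at its brightest probe, but a further bright probe was higher by 1.17, so the direction for this gene depends on the probe. Col8a1, a short-chain collagen, fell by 1.502 (-1.22 at another probe) and Col6a1, of the filaments around cells, by 0.80 (-0.87 and 0.05 at others).

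Basement membrane genes changed in both directions, 9 of 14 higher and 4 lower. The fallers included both chains of the main collagen IV: Col4a1 read 2033, 1359, 1927 and 2215 at 6 h and 794, 870.1, 830.5, 819 and 774 at 24 h. Col4a2 read 1285, 1115, 1179 and 1507 at 6 h and 515, 589, 612, 584 and 491 at 24 h. Neither gene overlapped between the times, and each fell by 1.18 (SE 0.11 and 0.09). In Dex, Col4a1 fell by 0.48 and Col4a2 gave 0.01, differences of -0.70 and -1.19 (adjusted p = 0.00915 and 2.43e-06). Nid2 fell by 0.84 while its relative Nid1 rose by 0.85 (0.02 at another, dimmer probe), and Col4a5, of the minor network, rose by 0.84. Laminin chains Lama2, Lama4, Lama5, Lamb2 and Lamc1 rose, by 0.20 to 0.51, and Lamb1 fell by 0.71. Other probes gave -0.04 and -0.03 for Lama2, -0.11 to 0.03 for Lama4 and 0.05 for Lamc1. With median centring 5 rose and 4 fell.

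Among other matrix genes, the gelatinase Mmp2 fell by 0.91, from 10699.9 ± 3011 to 5531 ± 364, and the inhibitor Timp3 by 0.90, with -0.23 and -0.07 at other probes. Adamts1, an aggrecan-cleaving protease, rose by 0.71, with -0.05 and 0.11 at other probes. Thrombospondin-1 (Thbs1), an activator of latent TGF-beta, rose by 0.77, whereas Thbs2 read 1314, 1330.0, 1247 and 1544 at 6 h and 659, 649.8, 813, 938 and 799 at 24 h and fell by 0.83. Thbs2 was higher at 24 h in Dex (0.67), which gave the difference of -1.49 (adjusted p = 7.63e-07). Itga11, a collagen-binding integrin chain, fell by 2.07 (-1.03 and -0.15 at other probes).

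**Figure D4:**
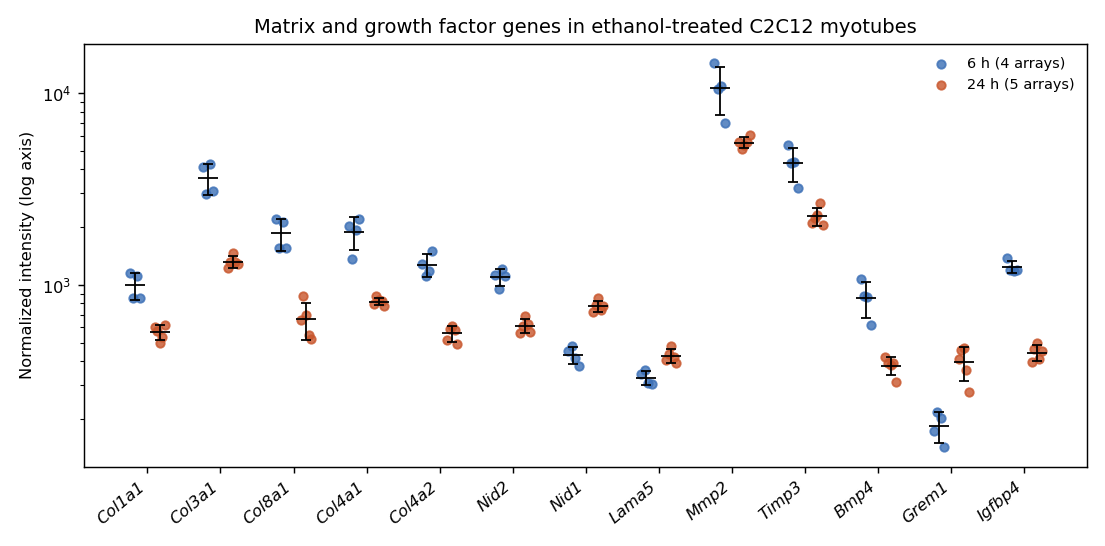
Normalized intensity (log axis) of 13 matrix and growth factor genes on the ethanol arrays; points are arrays, long bars are group means and whiskers 1 SD, with 4 arrays at 6 h (blue) and 5 at 24 h (red). Nid1, Lama5 and Grem1 sit higher at 24 h and the other 10 lower; the drawn Col3a1 probe is the brightest one, and another rose.

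Of 27 genes of the TGF-beta and BMP family, whose signals restrain myogenic differentiation, 3 rose and 8 fell. Over all genes 14.2% rose and 15% fell, and among those above the median gene 25% and 25.5%. Only 1 gene of the family rose without array 3 at 6 h or array 2 at 24 h, and 1 rose and 12 fell with median centring. Bmp4 read 1067, 876, 866 and 617 at 6 h and 419, 390.5, 382, 389.9 and 312 at 24 h. Bmp4 fell by 1.16 (SE 0.12, adjusted p = 2.45e-06; -0.25 at another probe) and Tgfb1 by 1.00. The BMP antagonist Grem1 rose by 1.09, from 184 ± 33.1 (SD, n = 4) to 394 ± 79.5 (SD, n = 5), and by 0.33 in Dex, a difference of 0.77 (adjusted p = 0.0211). The targets Id2, Id3, Id4 and Skil fell, by 0.71, 0.20, 0.22 and 0.23, and none of 11 targets rose; the Id3 call is lost without any 1 of 7 arrays, all but array 4 at 6 h and array 2 at 24 h (adjusted p from 0.0643 to 0.146).

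In the insulin-like growth factor axis, which promotes muscle growth, 4 of 12 genes rose and 5 fell. Among genes above the median gene, 25% rose and 25.5% fell. In the axis 2 rose without array 4 at 6 h, and 3 fell without array 1 at 6 h or array 4 at 24 h. Igfbp4, a binding protein that holds IGFs back, read 1377, 1198, 1182 and 1198 at 6 h and 398, 463, 498, 408 and 450.4 at 24 h. The arrays of each time were close together and far apart between times, and Igfbp4 fell by 1.48 (SE 0.07, adjusted p = 2.35e-09; -0.72 at another probe). Igfbp7 fell by 1.06 at its brightest probe, while 4 dimmer ones gave -0.01 to 0.06. Igf1 fell by 0.64 with overlapping groups at its brightest probe and by 1.13 without overlap at another (adjusted p = 0.000114 over all probes). The call of the brightest probe was lost without array 1 or 2 at 6 h or array 1, 4 or 5 at 24 h (adjusted p from 0.0504 to 0.103). The receptors Igf1r and Igf2r rose by 0.36 and 0.55. Other probes gave 0.12, -0.28 and 0.07 for Igf1r and 0.83 for Igf2r.

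DNA replication and mitosis genes fell in part. Myotube nuclei have left the cell cycle, and replication genes are silenced in them. Mcm5 and Mcm6 encode subunits of the replication helicase, and their promoters are shown because they hold the E2F letters TTTNNCGC, the kind of site through which Rb family proteins silence such genes. Both are 100-base stretches from RefSeq, build GRCm38.p6, at chr8:75109336-75109435 (plus strand, from 173 bases before the start of Mcm5) and chr1:128359736-128359835 (minus strand, from 130 bases before the start of Mcm6); capitals mark matches on either strand, joined where they overlap.
Mcm5: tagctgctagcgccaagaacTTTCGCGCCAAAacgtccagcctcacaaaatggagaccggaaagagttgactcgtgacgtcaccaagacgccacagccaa
Mcm6: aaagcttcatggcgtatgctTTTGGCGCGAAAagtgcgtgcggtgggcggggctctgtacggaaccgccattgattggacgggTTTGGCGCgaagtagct
These letters were in 10 of 28 promoters (35.7%) of the list and in 5.17% of all; of the 11 promoters of genes called lower, 2 held them.

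Of 33 measured genes 13 fell and 1 rose, with a median of -0.11 (3 rose without array 5 at 24 h, and none without array 1 at 6 h or array 1, 2 or 4 at 24 h); 8 of the 16 mitosis genes fell and none rose. Pcna, the sliding clamp of DNA polymerase, read 188, 207, 205 and 237 at 6 h and 109, 115, 118, 122 and 119 at 24 h, without overlap. It fell by 0.84 (SE 0.07, adjusted p = 1.86e-07), and by 0.35 in Dex, a difference of -0.49 (adjusted p = 0.00827). Mcm6 fell by 0.73, with other probes at -0.31, -0.02 and -0.01, and Mcm5 by 0.65. Tpx2, a spindle assembly factor, fell by 0.74, and the mitotic kinase Plk1 by 0.58. Cdk1, Ccna2 and Top2a were not called (-0.08, -0.07 and 0.18). Of 17 p53 targets 4 fell and 2 rose (10 fell with median centring). Among genes above the median gene, 25.5% fell and 25% rose. Of the targets, Pmaip1 (Noxa) fell by 0.99, Sesn1 by 0.80, and the kinase Plk2 rose by 0.93.

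Ribosomal protein genes rose or did not pass the test. Of 26 cytosolic ribosomal protein genes, 13 were higher and none lower, with a median of 0.21. Rps6, a phosphorylated protein of the small subunit, read 5411, 6752, 5411 and 6127 at 6 h and 11684, 10906, 11134, 10951 and 11074 at 24 h. Every late array lay far above every early one, and Rps6 rose by 0.92 (SE 0.07, adjusted p = 9.48e-08). Rpl4 rose by 0.65 and gave no change at another probe (-0.0019), Rps7 and Rps9 rose by 0.57 each. Ribosomal protein genes have many processed pseudogenes, so their probes may read more than one locus. Of 19 biogenesis factors 7 rose and 2 fell, among them the nucleolar GTPase Gnl3, up by 0.77, and Mybbp1a, up by 0.67. With median centring 10 ribosomal protein genes rose and 3 fell; on the values as deposited 4 rose and 11 fell.

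In the lysosome and autophagy list 14 of 29 fell and 5 rose, with a median of -0.16. Npc2, a lysosomal sterol carrier, read 2374, 2493, 2096 and 2292 at 6 h and 1336, 1311, 1381, 1365 and 1244 at 24 h, and fell by 0.80. Gabarapl2, an autophagosome protein, fell by 0.79 and the protease cathepsin B (Ctsb) by 0.46, while the initiating kinase Ulk1 rose by 0.52. Other probes gave -0.10 and 0.05 for Gabarapl2, -0.16 for Ctsb and 0.27 for Ulk1. Of 31 proteasome genes 8 rose and 8 fell, shares close to the 25% and 25.5% of genes above the median gene. With median centring 2 rose and 15 fell, and on the values as deposited 1 rose and 27 fell. Psmd6 fell by 1.37 and Psmd2 rose by 0.64. Of the muscle atrophy ligases, Fbxo32 (atrogin-1) read 327, 339.6, 366 and 332 at 6 h and 668, 571, 543, 556 and 508 at 24 h. It rose by 0.73, and by 1.30 in Dex, a difference of -0.57 (adjusted p = 0.00803), and Trim63 (MuRF1) gave -0.02 and was not called. Fbxo40 and Cblb fell by 0.76 and 0.67; both have other probes near 0.

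Among inflammatory genes, the largest rises were in secreted factors. Il1b, the cytokine interleukin-1 beta, read 149, 215, 154 and 179 at 6 h and 398, 332, 371, 385 and 500.3 at 24 h. It rose by 1.19 without overlap (SE 0.11, adjusted p = 9.97e-07), and by 1.19 in Dex too. The chemokines Cxcl1, Ccl7 and Ccl2 rose by 1.04, 0.86 and 0.46, with overlapping groups for Cxcl1 and -0.36 at another probe of Ccl7. Il6 and Tnf were not called (-0.10 and 0.07). In all 8 of 29 genes of the list rose, a share close to the 25% of genes above the median gene. In the same list 4 fell, beside 25.5% lower among those genes, and 2 fell without array 2 at 6 h or array 5 at 24 h. The macrophage markers Adgre1, Csf1r, Itgam, Lyz2 and Ptprc did not pass the test. The sixth, Cd14, the only one above the median gene, rose by 0.23, and the sum of all 6 was 639 to 670.4 at 6 h and 642 to 678 at 24 h.

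Immediate-early genes, switched on within minutes by serum or stretch, were higher for 5 of 25 and lower for 5 (3 lower without array 3 or 5 at 24 h). Over all genes 14.2% were higher and 15% lower, and among those above the median gene 25% and 25.5%. With median centring 4 immediate-early genes were higher and 8 lower, and on the values as deposited 3 and 19. Klf6 rose by 1.01, with values of 1904, 2102, 2208 and 2225 at 6 h and 4094, 4143, 4084, 4983 and 3904 at 24 h, and -0.03 at another probe. Jun rose by 0.67, while Fos fell by 0.68 and Egr2 by 0.80. Of 18 clock genes 3 rose and 6 fell, beside 25% higher and 25.5% lower among genes above the median gene. No more than 1 clock gene rose without array 3 or 4 at 6 h or array 1, 2 or 5 at 24 h. With median centring 1 rose and 10 fell. Arntl, the activator of the clock, read 459.9, 408, 421 and 397 at 6 h and 251, 278, 333, 265 and 229 at 24 h and fell by 0.64 (SE 0.09, adjusted p = 3.85e-05). Bhlhe40, a repressor of Arntl, fell by 0.68. Dbp, an output factor, rose by 0.32 with overlapping groups, a call lost without array 3 or 4 at 6 h or array 1 or 5 at 24 h (adjusted p from 0.0578 to 0.126) and with the sign turned on the values as deposited (-0.20). Per2 gave -0.06 in ethanol and fell by 0.70 in Dex, a difference of 0.65 (adjusted p = 0.00385).

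The largest single changes were in genes of various roles. Fxyd6, a regulator of the sodium pump, read 1692, 1334, 2000.4 and 2232 at 6 h and 296, 322, 348, 455 and 296 at 24 h, and fell by 2.39. Gpx3, a secreted glutathione peroxidase, read 1158, 893, 939.5 and 662 at 6 h and 164, 187, 189, 176 and 163 at 24 h, and fell by 2.35. In Dex, Gpx3 fell by only 0.43, a difference of -1.92 (adjusted p = 6.43e-07), whereas Fxyd6 fell by 1.71. The next falls were in Itga11, Ndrg4 (-1.93), the DNA ligase Lig1 (-1.80), Mybpc2, the endocytic adaptor Pacsin1 (-1.77), Myl2, the sorting nexin Snx1 (-1.68), Ankrd10 (-1.66), connexin 40 (Gja5, -1.66) and the vitamin C transporter Slc23a2 (-1.63). Other probes of Pacsin1 gave -0.50, 0.06 and -0.06, those of Lig1 0.09, -0.06 and -0.07, and those of Ankrd10 0.01, -0.35, -0.35, -0.07 and 0.19.

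Dctn1, a subunit of the dynein activator dynactin, had the largest rise. It read 113, 116, 92.9 and 91.3 at 6 h, near the median gene, and 433, 466, 526, 527 and 371 at 24 h, and rose by 2.17 (SE 0.10, adjusted p = 2.22e-09). The initiation factor Eif4b rose by 1.45 at its brightest probe and gave -0.26 at another. The microsomal glutathione transferase Mgst1 rose by 1.35, with 1.06 at its other probe. Magea2 and Magea8, cancer-testis antigens, rose by 1.26 and 1.20, the caveolar protein Cavin2 and the membrane tether Vapb by 1.19 each, Plac8, Atg9b and Smarca5-ps by 1.17 each, and Nmrk2, a muscle kinase of NAD synthesis, by 1.14. Other probes above the median gene gave 0.96 and -0.40 for Vapb and 0.13 and -0.16 for Nmrk2, where both negative values were called. The Magea genes are close copies of each other and Smarca5-ps is a pseudogene, so these probes may not separate the copies.

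Where a gene has several bright probes, they did not always move together. Among the 921 genes of at least 1.5-fold, 344 had another probe above the median gene; all of these were called the same way for 163, some for 30 and none for 94, and some were called the opposite way for 57. Probes of one gene can read different transcript ends or splice forms, and this was not tested.

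The changes between the times recurred in the Dex cultures, whose arrays are not shared with the vehicle. In both arms the deposited scale differed between the times, so a difference in array processing between the times would recur as well. Such a difference cannot be told apart from time in culture here. There 5668 genes (29.7%) were called between 24 h and 6 h, 3474 of them in the same direction as in ethanol and 63 in the opposite one; these 3474 are 62.4% of the ethanol calls and 61.3% of the Dex calls. Of the 921 ethanol calls of at least 1.5-fold, 876 (95.1%) were called the same way in Dex and 4 the opposite way. The difference between the time effects was called for 962 genes (5.05%). The deposited values of the arms are linked: at 24 h the deviations of same-numbered ethanol and Dex arrays from their group means correlated at -0.93, -0.75, -0.73, -0.33 and -0.19 across probes. Over 8 possible directions of spread among these 10 arrays, 3 held under 0.01% of it each, while in the ethanol arrays alone the smallest of 3 (6 h) and of 4 (24 h) directions held 9.2% and 6.28%. Tests across the arms thus assume more independent arrays than the values show, and the p-values of the differences may be too small. Whether the processing behind the deposited values also narrowed the spread within the ethanol groups, on which their own p-values rest, was not tested.

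**Figure D5:**
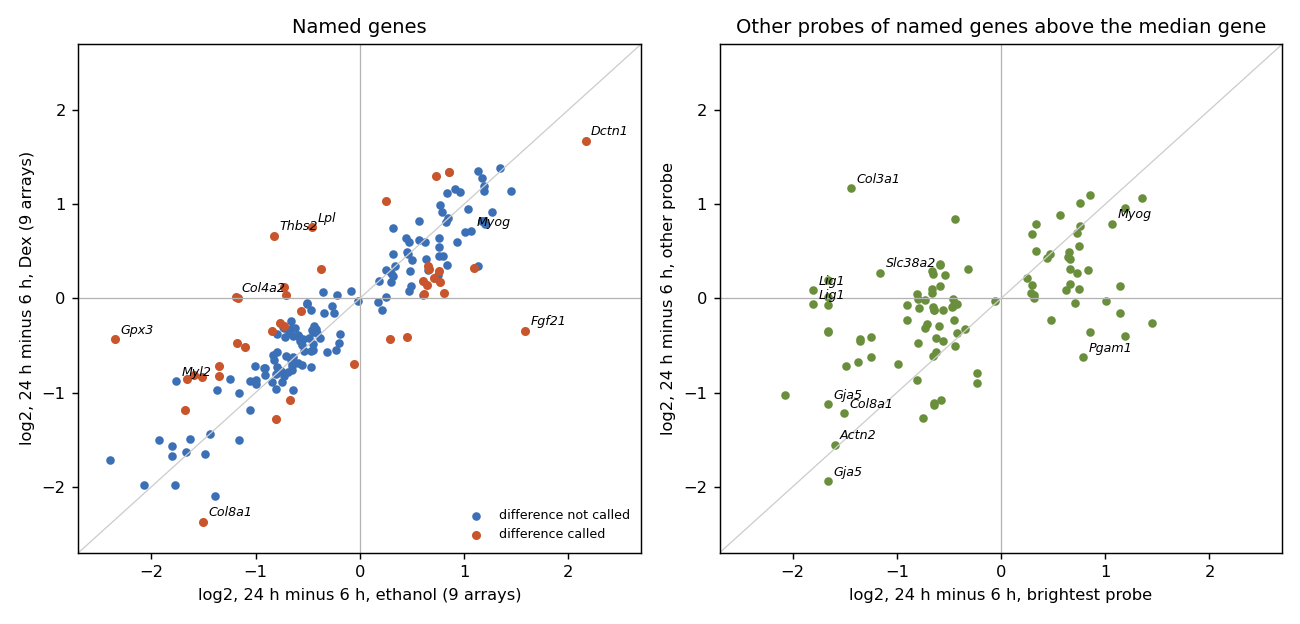
Left, log2 difference between 24 h and 6 h of the named genes in ethanol (x axis, 9 arrays) and Dex (y axis, 9 arrays), orange-red where the difference between the time effects was called; right, the log2 difference of 102 other probes of 69 of these genes (y axis) against that of the brightest probe (x axis). Most genes lie near the diagonal on the left, away from which stand Gpx3, Thbs2, Lpl and Fgf21; on the right 24 probes have the opposite sign, Col3a1 the furthest.

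Markers of other cell types were mostly near the median gene, and no value on this scale is at 0. Above the median gene were 4 of 7 fibroblast, 1 of 8 adipocyte, 2 of 6 osteoblast, 1 of 6 chondrocyte, 4 of 7 smooth muscle and 0 of 7 endothelial markers. Summed fibroblast markers were 1358 to 1623 at 6 h and 1060.1 to 1187 at 24 h, with Mfap5, a microfibril protein, falling by 1.06 and Pdgfra by 0.41. Of the 7 fibroblast markers, 2 were called lower, 1 higher and 4 were not called, with differences from -1.06 to 0.45. Their part in the lower collagen levels was not tested. The sum of the chondrocyte markers, 5157 to 5861 at 6 h and 2673 to 3279.9 at 24 h, was almost all Sox9, a transcription factor of cartilage, which fell by 0.96 (-0.71 at another probe). Smooth muscle markers, which immature muscle shares, summed to 62858 to 67746 and 57615 to 63029.8. Myoblast markers summed to 1763 to 1943 at 6 h and 2221 to 2449 at 24 h. Only Sdc4 of these 7 was called higher, with -0.0077 on the values as deposited, and Heyl and Id3 were called lower. The part of the myoblast markers in the changes of myogenic and replication genes was not tested.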

How the data were processed

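RNA of C2C12 myotubes was hybridized to Illumina mouseWG-6 bead arrays. The deposited values are linear probe intensities that, per the submitters' processing notes, the authors made with lumi; which version, background method and normalization they used is not given in the sources used here. Detection values and scanner files were not used here. Log2 intensity (pseudocount 0) of the 9 ethanol arrays was quantile normalized. Of 45281 probes, 34885 had 1 gene symbol, 18 several and 10378 none. For 34807 of the 34885, the symbol was taken by gene identifier from GRCm38.p6, whether or not it differed from the older one. The brightest probe by mean log2 value over 18 arrays stood for each of 19057 genes. Times were compared in limma 3.58.1 (lmFit, then eBayes; R 4.3.3), with Benjamini-Hochberg adjustment over all genes; the model was tested on simulated data. The Dex arrays were treated alike, and the difference between the time effects was fitted over 18 arrays. Over all genes, the deviations of same-numbered arrays of the 2 times were nearly uncorrelated (0.0014 to 0.0316), and no pairing was used. Single genes may still share them: Fgf21 and Ddit3 read highest on arrays 1 and 2 at both times. With the replicate number as a block, 13 genes of the ATF4 list rose, against 7 without it.

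The members, the 49 lists (40 of genes, 9 of cell markers) and the tests were chosen with earlier results of these data known. Genes were named by a rule: the 12 largest rises and 12 largest falls among called genes without overlap and above the median gene, the 4 largest called changes of each list with at least 3 called members, and a few fixed genes. Other list members named were chosen after their values were seen. Promoters cover 250 bases before to 50 after a start, from RefSeq. The precision is limited by the number of arrays, and background in the signal of dim genes makes their folds too small.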

Additional observations from a re-analysis of the deposited data

Results flagged for a closer look

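In 9 of 360 groups examined (2.5%; 180 named genes at 2 times) 1 array stood apart from the others of its group, fewer than the 1 in 20 that chance puts past the same limit (Dixon's test). At 6 h these were replicate 1 for Acacb, at 101 against 88.3 to 89.2 on the others, for Igfbp4, at 1377 against 1182 to 1198, and for Srxn1, at 269.8 against 274 to 275, and replicate 4 for Dusp5, at 155 against 169 to 171. At 24 h they were replicate 3 for Egr2, at 339.9 against 423 to 444, replicate 1 for Heyl, at 106 against 114 to 117, replicate 4 for Klf6, at 4983 against 3904 to 4143, and replicate 5 for Plac8, at 366 against 248 to 273, and for Psmd6, at 207 against 153 to 159.8.

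For 41 named genes the change from 6 h to 24 h differed between ethanol and Dex in a limma contrast over the 18 arrays. Matrix genes were found on both sides. The change was lower in ethanol for Thbs2 (difference -1.49), Col4a2 (-1.19), Actg2, a smooth muscle actin (-1.17), Myl9, a non-sarcomeric myosin light chain (-0.84), Col4a1 (-0.70) and Ccn5 (-0.43). It was also lower for Gpx3 (-1.92), Lpl (-1.21), Gja5 (-0.81), Actn2 (-0.79), the Notch targets Hey1 (-0.78) and Heyl (-0.68), Insig1 (-0.64), the ferritin light chain Ftl1 (-0.58), Fbxo32 (-0.57), Ppargc1b (-0.51), Pcna (-0.49), Snx1 (-0.49) and Ndrg1 (-0.48). Respiratory chain genes were in this group, with Ndufb9 at -0.75, Sdhd at -0.68, Atp5a1 at -0.52 and Ndufb5 at -0.43.

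The change was higher in ethanol for amino acid response genes: Fgf21 (1.93), Atf3 (0.75), the methionyl-tRNA synthetase Mars1 (0.72) and Sesn2 (0.57). It was higher for Col8a1 and Pi16 (0.87 each), Grem1 (0.77), Per2 (0.65), Thbs1 (0.60), Rpl4 (0.50), Adamts1 and Dctn1 (0.49 each), Col1a1 (0.48), Pfkp (0.47), Myh7 (0.42), Cblb (0.41), Mybbp1a (0.36) and Nop56 (0.31).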

How the results depend on the processing

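On the values as deposited 14883 genes were called (293 higher, 14590 lower, 1.97% higher), and for Dex 15068. Median centring gave 1267 higher and 4916 lower (20.5% higher), and cyclic loess 42% higher. With 1 array left out, 4738 to 5387 genes were called, 2274 to 2646 higher and 2464 to 2741 lower, the share higher being 46.7% to 49.1%, lowest without array 3 at 6 h. The replicate number as a block left 5046 calls, 2470 higher and 2576 lower (48.9%); with it 13 genes of the ATF4 list rose, more than its 12 regulators, and 8 calcium handling genes fell. As deposited, 16 named genes turned sign: Cnn1 (-0.0138), Dbp (-0.20), Dusp1 (-0.29), Dusp4 (-0.15), Dusp5 (-0.18), Fhl2 (-0.0021), Hey1 (-0.24), Hsph1 (-0.0365), Ifi35 (-0.15), Ireb2 (-0.20), Mars1 (-0.22), Psma7 (-0.0080), Qars (-0.21), Sars (-0.0225), Sdc4 (-0.0077) and Srxn1 (-0.11). Median centring turned Dusp1 (-0.0711) and Hey1 (-0.0161). The mean of all probes turned Musk (0.0005) and Vcan (0.0583) and ended 18 other calls of named genes. The causes of these shifts were not tested. Of the 921 calls of at least 1.5-fold, 917 held in every fit with 1 array left out, 921 with the block and 870 with the mean of probes. Dim genes limit what could be called, since their signal lies near the median gene.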

Other observations

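Other classes moved little or in both directions at 24 h in ethanol. Of 28 interferon-stimulated genes 2 rose and 2 fell, with B2m, a chain of MHC class I, rising most, by 0.45; none fell without array 3 at 6 h, and 1 without array 1 or 2 at 24 h. Of 15 heat shock genes 2 rose and 3 fell (8 fell with median centring), with Hspa8 up by 0.32 and Hspa4 down by 0.83. Other probes gave 0.35 and -0.31 for Hspa8 and -0.11 for Hspa4. In the endoplasmic reticulum list 5 of 20 rose and 3 fell (3 rose without array 1 or 3 at 6 h or array 2 or 5 at 24 h, and 9 fell with median centring); the co-chaperone Dnajb9 fell by 0.75 (-1.27 at another probe) and the chaperone Hspa5 by 0.46 at dim signal, while the disulfide isomerase Pdia4 rose by 0.46. Antioxidant genes other than Gpx3 were mixed, with haem oxygenase Hmox1 up by 0.76 with overlapping groups and thioredoxin reductase Txnrd1 down by 0.44. Thioredoxin (Txn1) fell by 1.04, with 0.01 at both other probes, and the ferritin light chain Ftl1 fell by 1.10, with 0.02 at its other probe.

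Of 17 Notch genes 2 rose and 5 fell. Over all genes 14.2% rose and 15% fell, and among those above the median gene 25% and 25.5%. Only 1 Notch gene rose without array 2 at 6 h or array 3, 4 or 5 at 24 h. Without array 1 at 6 h or array 1 or 2 at 24 h, 3 fell. Hes1, a target, fell by 0.54, and Heyl fell by 0.38 in ethanol and rose by 0.31 in Dex. Smooth muscle type actin Actg2 read 1064, 1234, 1113 and 1198 at 6 h and 417, 433, 557, 668 and 518 at 24 h, a fall of 1.17, and gave 0.0003 in Dex. Myl9, a target of SRF like Actg2, fell by 0.73. Of 20 genes of that list 4 rose and 6 fell, and Acta2 and Actb gave 0.01 and 0.06 at their brightest probes. Other probes of Actb gave 0.18, 0.40, -1.83 and -1.90, and those of Acta2 -0.22 to 0.10.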
